A study of Mus musculus with 6 samples.

Results

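The Shank, Dlg and Homer genes encode the scaffold proteins that sit beneath glutamate receptors at excitatory synapses. The 10 genes described here are Shank1, Shank2 and Shank3, Dlg1, Dlg2, Dlg3 and Dlg4, and Homer1, Homer2 and Homer3, out of 39179 genes in the count table. They were taken by gene symbol as whole families, and the families were chosen on a reading of the results of the comparison between the groups, so the differences between the groups given here are a description and support nothing further. All 10 symbols were matched to 1 Ensembl gene each.

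Proteins of the Dlg family, the membrane-associated guanylate kinases, bind the tails of NMDA and potassium channel subunits through PDZ domains. SAPAP adaptors, encoded by the Dlgap genes, link them to Shank proteins, the layer below, and Homer proteins join Shank to group I metabotropic glutamate receptors and to calcium release channels of the endoplasmic reticulum (ER). Homer1 also makes a short form, Homer1a, which is induced by neuronal activity and lacks the coiled coil through which long forms assemble. Counts per gene do not separate these forms. The same genes are used outside synapses, for example Dlg1 in epithelial and glial polarity.

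The cells were neural progenitors from the cerebral cortex of CD1 mouse embryos at E13.5, made to express a transgene stably and then differentiated, and RNA was taken from culture flasks. In 1 group the transgene was GFP (3 libraries). In the other it was G392E neuroserpin (G392E-NS, 3 libraries), a variant of a neuronal protease inhibitor that polymerises in the ER and causes a familial dementia. The labels do not say which promoter drives the transgene, how many clones were used or whether replicates were separate cultures, so p-values measure the spread between these libraries, which may be technical. Cells with wild-type neuroserpin were not analysed here, and the group difference is that between the variant and GFP. The groups also differed in a gene that depends on the sex of the cells. Xist, the RNA that silences an X chromosome in female cells, was at 1.51 ± 0.0831 CPM in GFP cells and 1494 ± 345 CPM in G392E-NS libraries (n = 3 each). Uty, Kdm5d, Eif2s3y and Ddx3y, genes of the Y chromosome, had counts in every library, 3581 to 6314 per gene over the GFP libraries and 1741 to 3544 over the G392E-NS libraries. In every difference between the groups, that of Shank2 included, the transgene and a difference in the sex or origin of the cells cannot be told apart.

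Libraries held 15507487 to 24835835 counts. Markers of several cell types were present in every library. Summed over 17 neuron markers, levels were 3598 to 4128 CPM (counts scaled to library size and composition) in GFP cells and 3325 to 4578 in G392E-NS libraries. The genes of vesicular glutamate transporters were near 0, with 4 counts of Slc17a7 and 1 of Slc17a6 over all 6 libraries, as was Stmn2, a growth cone gene, with 14. The 13 astrocyte markers summed to 4297 to 6472 CPM in GFP cells and 10400 to 17610 CPM in G392E-NS libraries. The sums were 3815 to 4465 and 3592 to 5800 CPM for 12 oligodendrocyte lineage markers, and 4121 to 4794 and 3906 to 4894 CPM for 12 progenitor markers. Those of 12 mesenchymal and pericyte markers were 2.65 to 3.69 and 14.3 to 32.1 CPM, with Dcn and Lum at 0 in every library, and those of 12 microglia and endothelial markers 1.37 to 1.61 and 0.913 to 1.49 CPM, with Cdh5, Cldn5 and Csf1r at 0. In such bulk RNA, fewer cells of a type and less RNA per cell cannot be told apart.

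Since paralogs resemble each other, the extent to which a read could fit more than 1 of them was examined first. Over the annotated transcripts of GENCODE M21 (GRCm38), no window of 50 bases was found in more than 1 member of a family, in any of 12 pairs. In the longest coding sequence of each gene, the longest identical run between paralogs was 11 bases (Homer1 and Homer3) to 26 bases (Shank1 and Shank3, Dlg2 and Dlg3, and Dlg2 and Dlg4). The labels do not give the read length. The pairs below are shown because their relative levels are compared further on. Capitals mark the longest identical run, and lower case the 21 coding bases on each side, read 5′ to 3′ along the transcript.
Shank1: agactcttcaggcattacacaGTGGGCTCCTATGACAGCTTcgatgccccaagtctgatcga
Shank2: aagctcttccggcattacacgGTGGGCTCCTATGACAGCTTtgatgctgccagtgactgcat
Homer1: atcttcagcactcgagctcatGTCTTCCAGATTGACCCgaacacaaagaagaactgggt
Homer2: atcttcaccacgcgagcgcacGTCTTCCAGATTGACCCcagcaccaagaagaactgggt
Dlg3: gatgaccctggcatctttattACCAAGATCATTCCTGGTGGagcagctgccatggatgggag
Dlg4: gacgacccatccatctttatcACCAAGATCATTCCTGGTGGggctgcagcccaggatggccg

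The run shared by Shank1 and Shank2 is 20 bases long and lies at chromosome 7, 44333587 to 44333606 on the plus strand, in Shank1 and at chromosome 7, 144259109 to 144259128 on the plus strand, in Shank2. Over that run and its flanks 75.8% of bases were identical. The run of 17 bases shared by Homer1 and Homer2 lies at chromosome 13, 93341787 to 93341803 on the plus strand, and at chromosome 7, 81649663 to 81649679 on the minus strand, in a stretch with 88.1% identity. The run of 20 bases shared by Dlg3 and Dlg4 lies at chromosome X, 100772135 to 100772154 on the plus strand, and at chromosome 11, 70030945 to 70030964 on the plus strand, with 80.6% identity. All these positions are in coding exons.

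Of the 10 genes, 9 had enough counts to be tested and Dlg2 did not. In the edgeR quasi-likelihood fit over all 13775 genes tested, with p-values adjusted over all of them and a threshold of 0.05, 1 of the 9 passed, Shank2, which was higher in G392E-NS libraries. None was lower, by edgeR or by DESeq2. At an unadjusted p under 0.05 there were 2 higher members, Shank2 and Shank3, and 0 lower ones, against 14.4% and 8.06% of all genes tested. With a library left out, 0 members were higher without GFP replicate 1 or GFP replicate 2. Without G392E-NS replicate 1 there were 2 higher (Shank2 and Shank3) and 1 lower (Homer1). Over all genes tested, 4.79% were called higher, 1.36% lower and 6.15% in either direction. On the log2 scale the median difference was −0.04 over the 9 members and −0.01 over all genes tested. Shank2, Shank3 and Homer2 were the 3 members whose groups did not overlap in CPM, all with higher values in G392E-NS libraries, a separation seen in 28.6% of all genes tested. Since the comparison had been seen when the families were chosen, nothing is read from these shares.

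**Figure D1:**
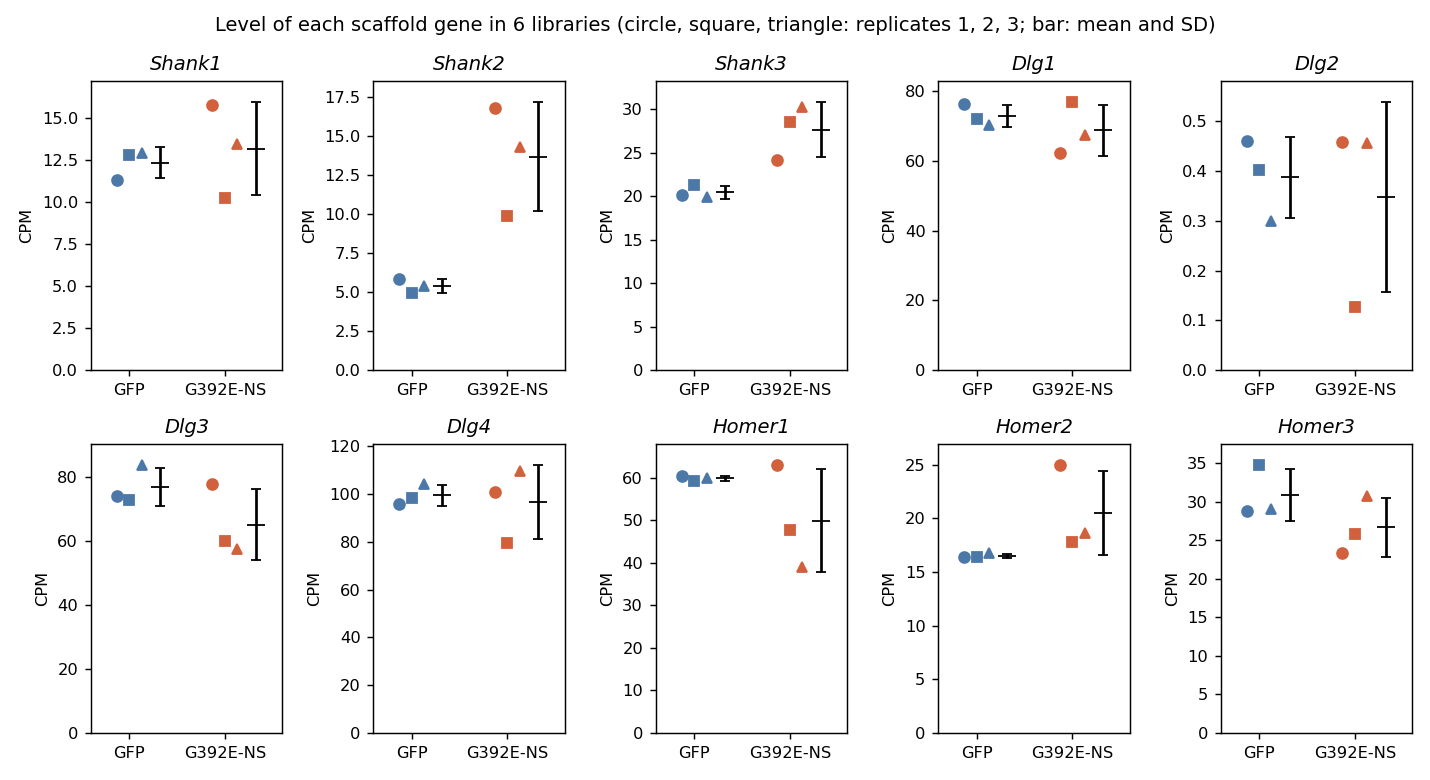
Level of each of the 10 scaffold genes in CPM, by group, with each library as a symbol (circle, square and triangle for replicates 1, 2 and 3) and the mean and SD beside them; each panel has its own axis, which starts at 0. Shank2 lies between 4.92 and 5.82 CPM in GFP cells and between 9.88 and 16.8 CPM in G392E-NS libraries.

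Shank proteins are the large master scaffolds of the postsynaptic density, and mutations in SHANK2 and SHANK3 are known from autism and Phelan-McDermid syndrome. Shank2 (ENSMUSG00000037541, GRCm38 chromosome 7, 144001928 to 144424494) had 5.82, 4.92 and 5.39 CPM in GFP replicates 1 to 3 and 16.8, 9.88 and 14.3 CPM in G392E-NS replicates 1 to 3. The lowest G392E-NS library, replicate 2, was above the highest GFP library. Shank2 rose 2.54-fold, from 5.38 ± 0.45 to 13.6 ± 3.48 CPM (mean ± SD, n = 3 each; log2 fold change 1.34, SE 0.22, edgeR adjusted p = 0.0127). The underlying counts were 98 to 126 in GFP cells and 219 to 403 in G392E-NS libraries. This call was lost without GFP replicate 1 (edgeR adjusted p = 0.0571) and without GFP replicate 2 (adjusted p = 0.0587), while the log2 fold change stayed between 1.15 and 1.52 over the 6 fits that each left out a library. Summed astrocyte markers and summed mesenchymal markers were also higher in every G392E-NS library. In G392E-NS libraries most of the latter sum was Thy1, which neurons also express. It was at 0.954 ± 0.233 CPM in GFP cells and 18.04 ± 7.15 CPM in G392E-NS libraries (n = 3 each). Collagen genes were at or near 0. All 4 mesenchymal markers tested had a positive log2 fold change, and 2 passed the test, Thy1 and Twist1. Twist1 had 0 counts in GFP cells and 129 in G392E-NS libraries. Pdgfrb, which was not tested, had 0, 0 and 4 counts in GFP replicates 1 to 3 and 11, 36 and 2 in G392E-NS replicates 1 to 3. Among the G392E-NS libraries Shank2 was lowest in replicate 2, where both sums were highest. Their part in the result was not tested.

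Shank3 (ENSMUSG00000022623, chromosome 15, 89499623 to 89560261) had 20.2, 21.3 and 19.9 CPM in GFP cells and 24.1, 28.5 and 30.3 CPM in G392E-NS replicates 1 to 3. Its groups did not overlap, but the difference was a smaller one, 1.35-fold (log2 fold change 0.43, SE 0.12), and did not pass the test with edgeR (adjusted p = 0.0721). DESeq2 called it at the same size (0.43, adjusted p = 0.0357), and so did edgeR without G392E-NS replicate 1 (0.50, adjusted p = 0.0322). In contrast to Shank2, its lowest G392E-NS library was replicate 1. Shank1 (ENSMUSG00000038738, chromosome 7, 44310253 to 44360572) had 11.3, 12.8 and 12.9 CPM in GFP cells and 15.8, 10.3 and 13.4 CPM in G392E-NS libraries. The groups overlapped, with G392E-NS libraries both above and below all GFP libraries, and the log2 fold change of 0.09 (SE 0.18, edgeR adjusted p = 0.802) became −0.08 without G392E-NS replicate 1. Exons of 1700008O03Rik and Gm15609 on the opposite strand cover 3.22% of the exon bases of Shank1 and 2.95% of those of Shank3. Both were under 0.4 CPM in either group.

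The balance between the Shank paralogs was set out as a ratio within each library, which does not depend on library scaling. Annotated gene length enters each ratio but is the same in both groups. Whether the groups make the same transcripts of a gene was not measured. Shank1 over Shank2, as a ratio of CPM, was 1.94, 2.60 and 2.40 in GFP replicates 1 to 3 and 0.940, 1.04 and 0.941 in G392E-NS replicates 1 to 3. Thus Shank1 counts were about those of Shank2 in all 3 G392E-NS libraries and well above them in all 3 GFP libraries. In the G392E-NS group the levels of both genes were highest in replicate 1 and lowest in replicate 2. Shank2 over Shank3 was 0.231 to 0.289 in GFP cells and 0.347 to 0.695 in G392E-NS libraries, without overlap, while Shank1 over Shank3 overlapped (0.560 to 0.648 and 0.360 to 0.653).

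**Figure D2:**
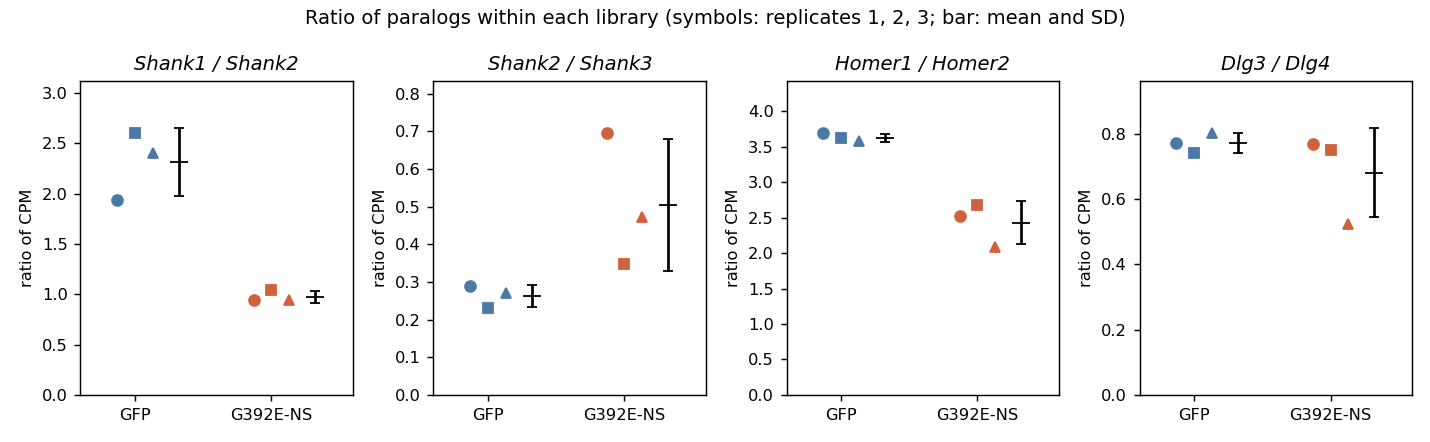
Ratio of CPM between 2 paralogs in each library, for 4 pairs, with symbols for replicates 1 to 3 and the mean and SD beside them; axes start at 0. Shank1 over Shank2 lies at 1.94 to 2.60 in GFP cells and 0.940 to 1.04 in G392E-NS libraries, and Homer1 over Homer2 at 3.58 to 3.69 and 2.09 to 2.68, whereas Dlg3 over Dlg4 overlaps between the groups.

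Dlg proteins are the scaffolds that hold receptors and channels directly, with Dlg4 encoding PSD-95, Dlg1 SAP97, Dlg2 PSD-93 and Dlg3 SAP102, the form known for its role at young synapses. None of the 3 Dlg genes tested passed the test. Dlg4 (ENSMUSG00000020886, chromosome 11, 70016942 to 70047522) had 95.8, 98.2 and 104 CPM in GFP cells and 101, 79.7 and 109.5 CPM in G392E-NS replicates 1 to 3. The G392E-NS values lay on both sides of those in GFP (log2 fold change −0.04, SE 0.12, edgeR adjusted p = 0.878). Without G392E-NS replicate 2, its lowest library, Dlg4 had a log2 fold change of 0.07.

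Dlg1 (ENSMUSG00000022770, chromosome 16, 31663443 to 31875129) had 76.3, 71.9 and 70.2 CPM in GFP cells and 62.3, 76.7 and 67.2 CPM in G392E-NS libraries, with overlapping groups (log2 fold change −0.08, SE 0.10, edgeR adjusted p = 0.672). Dlg3 (ENSMUSG00000000881, chromosome X, 100767722 to 100818410) had 73.9, 72.7 and 83.5 CPM in GFP cells and 77.6, 59.8 and 57.4 CPM in G392E-NS libraries. G392E-NS replicate 1 lay among the GFP libraries and the other two below them (log2 fold change −0.24, SE 0.13, edgeR adjusted p = 0.324). Dlg3 is X-linked, and the difference in Xist given above lies beside its values. Over the 494 X-linked genes tested the median was −0.05 on the log2 scale, and 30 were called higher and 15 lower. Over all 13775 genes tested the median was −0.005, with 660 called higher (4.79%) and 187 lower (1.36%). The part of X inactivation in the values of Dlg3 was not tested.

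Dlg2 (ENSMUSG00000052572, chromosome 7, 90476672 to 92449247), which spans the longest locus of the 10, was close to the limit of detection. Its counts were 8, 8 and 7 in GFP cells and 11, 3 and 7 in G392E-NS replicates 1 to 3, or 0.299 to 0.461 and 0.127 to 0.457 CPM. The groups overlapped, and no difference was seen at these low counts. With no filter on low counts its log2 fold change was −0.19 (edgeR adjusted p = 0.890).

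Homer proteins bind proline-rich motifs in metabotropic glutamate receptors, Shank and calcium channels, and their long forms cross-link these partners. None of the 3 genes passed the test with all libraries. Homer1 (ENSMUSG00000007617, chromosome 13, 93299635 to 93405129) had 60.4, 59.3 and 59.9 CPM in GFP cells and 62.9, 47.7 and 38.9 CPM in G392E-NS replicates 1 to 3. The GFP libraries were nearly equal, whereas the G392E-NS libraries spread from above all of them to well below (59.9 ± 0.577 against 49.9 ± 12.1 CPM, n = 3 each). The log2 fold change was −0.26 (SE 0.16, edgeR adjusted p = 0.379). Without G392E-NS replicate 1 it was −0.48 and passed the test (edgeR adjusted p = 0.0389). Removing length and GC trends left it at −0.07.

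Homer2 (ENSMUSG00000025813, chromosome 7, 81600481 to 81707527) had 16.4, 16.4 and 16.7 CPM in GFP cells and 25.0, 17.8 and 18.7 CPM in G392E-NS libraries. All 3 G392E-NS libraries were above all GFP libraries, 2 of them by little, and the difference did not pass the test (log2 fold change 0.31, SE 0.15, edgeR adjusted p = 0.261). It was 0.13 without G392E-NS replicate 1, where it was highest. Homer3 (ENSMUSG00000003573, chromosome 8, 70282827 to 70294361) had 28.7, 34.7 and 29.0 CPM in GFP cells and 23.3, 25.8 and 30.8 CPM in G392E-NS libraries, with overlapping groups (log2 fold change −0.21, SE 0.14, edgeR adjusted p = 0.393). Exons of Ddx49 on the opposite strand cover 25.4% of the exon bases of Homer3. Whether counting used strand, and how it treated reads in shared exons, is not given. The count of Homer3 may thus lack reads from these exons or hold reads of Ddx49. Its level per kb, given below, has the same limit. Ddx49 had a log2 fold change of −0.08 (edgeR adjusted p = 0.732).

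Homer1 over Homer2, as a ratio of CPM, was 3.69, 3.62 and 3.58 in GFP cells and 2.52, 2.68 and 2.09 in G392E-NS replicates 1 to 3. The ratio was lower in each G392E-NS library than in any GFP library, including replicate 1, where the level of Homer1 itself was not. In that replicate Homer2 was at its highest, 25.0 CPM. Neither gene passed the test with all libraries. How often the ratios of other gene pairs separate in this way was not counted, here or for the Shank pairs. Homer2 over Homer3 was 0.471 to 0.576 in GFP cells and 0.606 to 1.07 in G392E-NS libraries, and Homer1 over Homer3 overlapped (1.71 to 2.10 and 1.26 to 2.70). In the Dlg family all 6 ratios overlapped between the groups. Dlg1 over Dlg4 was 0.673 to 0.796 in GFP cells and 0.614 to 0.963 in G392E-NS libraries, and Dlg3 over Dlg4 was 0.740 to 0.801 and 0.524 to 0.768.

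**Figure D3:**
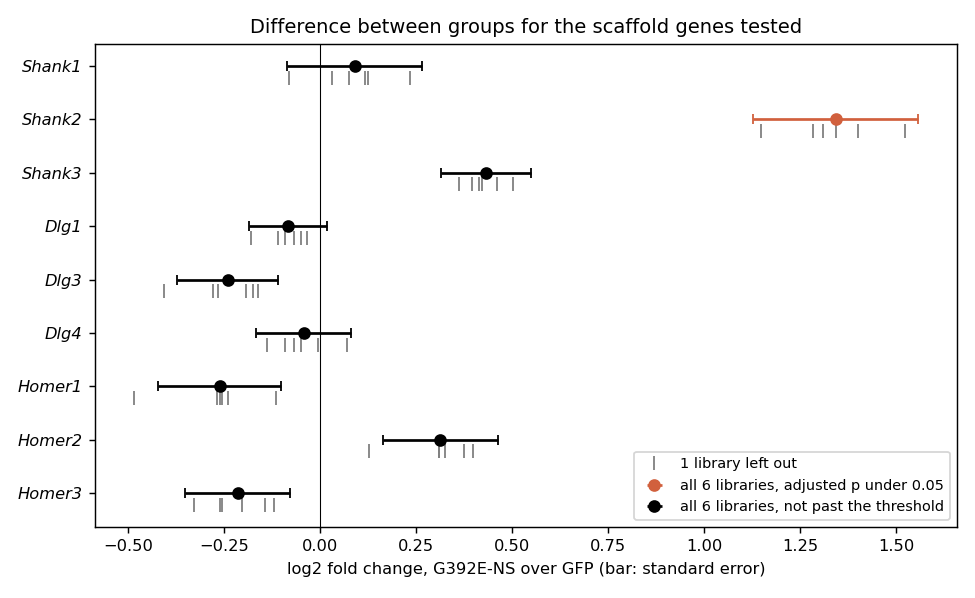
Log2 fold change of G392E-NS over GFP for the 9 genes tested, with its standard error (point and bar) and the same value with each library left out in turn (grey ticks). Shank2 stands at 1.34, and between 1.15 and 1.52 with a library left out, while the other 8 lie between −0.26 and 0.43 with all libraries.

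The spread among G392E-NS libraries was larger than among GFP libraries for all 10 genes, with an SD in CPM 1.12 times (Homer3) to 21 times (Homer1) as high. The ratio for Homer1 rests on a GFP SD of 0.577 CPM, from 3 nearly equal values. The share of all genes tested with a larger SD in G392E-NS libraries was not counted, so nothing is read from this. Another measure, over many more genes, was also higher in G392E-NS libraries. It was chi-square per degree of freedom between replicates, over genes with at least 10 counts in the pair. Its values were 8.02 to 24.08 in GFP cells and 36.97 to 56.42 in G392E-NS libraries. Unlike an SD in CPM, it depends on depth and mostly on abundant genes. Shank1, Shank2, Dlg2, Dlg3, Homer1 and Homer2 were highest in G392E-NS replicate 1, and Shank3, Dlg1 and Homer3 were lowest there. The neuron marker sum, most of it Map2, was also highest in that library among the 3. It was 4578 CPM there, against 3609 and 3325 in replicates 2 and 3. Its part in these values was not tested.

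Levels between paralogs are described here per kb of exon and no test is relied on, since the values that led to the choice of families are not recorded. A test of these levels was run, and its counts are given in the last section with that limit. With the union of annotated exons as length, Shank3 was the highest of its family at 2.23 ± 0.0787 CPM per kb in GFP cells and 3.01 ± 0.345 in G392E-NS libraries. Shank1 followed at 1.17 ± 0.0862 and 1.25 ± 0.262, and Shank2 had 0.499 ± 0.0417 and 1.27 ± 0.323 (n = 3 each). Shank3 exceeded Shank1 (2.14-fold) and Shank2 (3.26-fold) in 6 of 6 libraries. Shank1 exceeded Shank2 in 3 of 3 GFP libraries and in 1 of 3 G392E-NS libraries, so the order of this pair differed between libraries.

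The order within the Dlg and Homer families depended on which length was used. Per kb of exon union, Dlg3 was highest in its family (13.1 ± 1.02 CPM per kb in GFP, 11.1 ± 1.89 in G392E-NS), above Dlg4 (7.51 ± 0.331 and 7.30 ± 1.16), Dlg1 (6.78 ± 0.289 and 6.40 ± 0.682) and Dlg2 (0.0238 ± 0.00501 and 0.0213 ± 0.0117). Dlg3 exceeded Dlg4 1.63-fold in 6 of 6 libraries. Dlg1 minus Dlg4 was −0.16 on the log2 scale with an SD of 0.25 over libraries, and Dlg4 was the higher in 5 of 6. The exon union of Dlg4 is 13251 bases, but the transcript with its longest coding sequence is 3414 bases. With the latter kind of length for each gene, Dlg4 exceeded Dlg3 2.02-fold in 6 of 6 libraries and Dlg1 and Dlg3 were 1.07-fold apart. Dlg2 was lowest in 6 of 6 libraries under both lengths, by a mean of 240.1-fold to 439-fold with the exon union and 248-fold to 501-fold with transcripts, with 0.1 CPM added before the logarithm. These folds depend on that constant, as Dlg2 lay near it: with 1 CPM added they were 79.7-fold to 146-fold with the exon union.

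Homer3 was highest per kb of exon union (8.97 ± 0.983 CPM per kb in GFP, 7.75 ± 1.10 in G392E-NS), followed by Homer1 (4.999 ± 0.0482 and 4.16 ± 1.01) and Homer2 (1.31 ± 0.0167 and 1.62 ± 0.309). Each step held in 6 of 6 libraries. The exon union of Homer2 is 12621 bases and its longest coding transcript 1634 bases. With transcript lengths the 3 Homer genes had means over all 6 libraries within 1.13-fold of each other, in an order that varied between libraries. These means join 2 groups that differed. Homer1 exceeded Homer2 in 3 of 3 GFP libraries and 1 of 3 G392E-NS libraries. Homer2 exceeded Homer3 in 0 of 3 GFP libraries and 2 of 3 G392E-NS libraries. Which transcripts these cells make was not measured, so the order within the Dlg and Homer families cannot be settled from counts per gene. With transcript lengths the direction held for Shank3 over both paralogs and for Dlg2 below all, in 6 of 6 libraries.

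Summed per kb of exon union, the Shank family had 3.90 ± 0.0908 CPM per kb in GFP cells and 5.52 ± 0.47 in G392E-NS libraries, with ranges of 3.81 to 3.99 and 4.996 to 5.90. Shank2 made up 11.4% to 14.2% of that sum in GFP cells and 18.4% to 27.4% in G392E-NS libraries. The share of Shank1 was 28.2% to 31.5% and 19.5% to 26.4%, again without overlap, and that of Shank3 overlapped (55.6% to 58.04% and 46.2% to 62.1%). Shares within a family are not independent, as a higher level of 1 paralog lowers the shares of the others. The lower share of Shank1 is thus not read as a second change. Its own CPM overlapped between the groups (log2 fold change 0.09, SE 0.18), which does not show that it was unchanged. Both Shank2 and Shank3 were higher in every G392E-NS library than in any GFP library. The Dlg sum was 26.6 to 28.7 CPM per kb in GFP cells and 23.4 to 26.7 in G392E-NS libraries, which overlap, but with transcript lengths the ranges were apart (58.9 to 62.5 and 51.9 to 58.7). The Homer sum was 14.7 to 16.3 and 12.9 to 14.0 CPM per kb, but overlapped with transcript lengths (35.9 to 38.0 and 32.6 to 39.5).

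**Figure D4:**
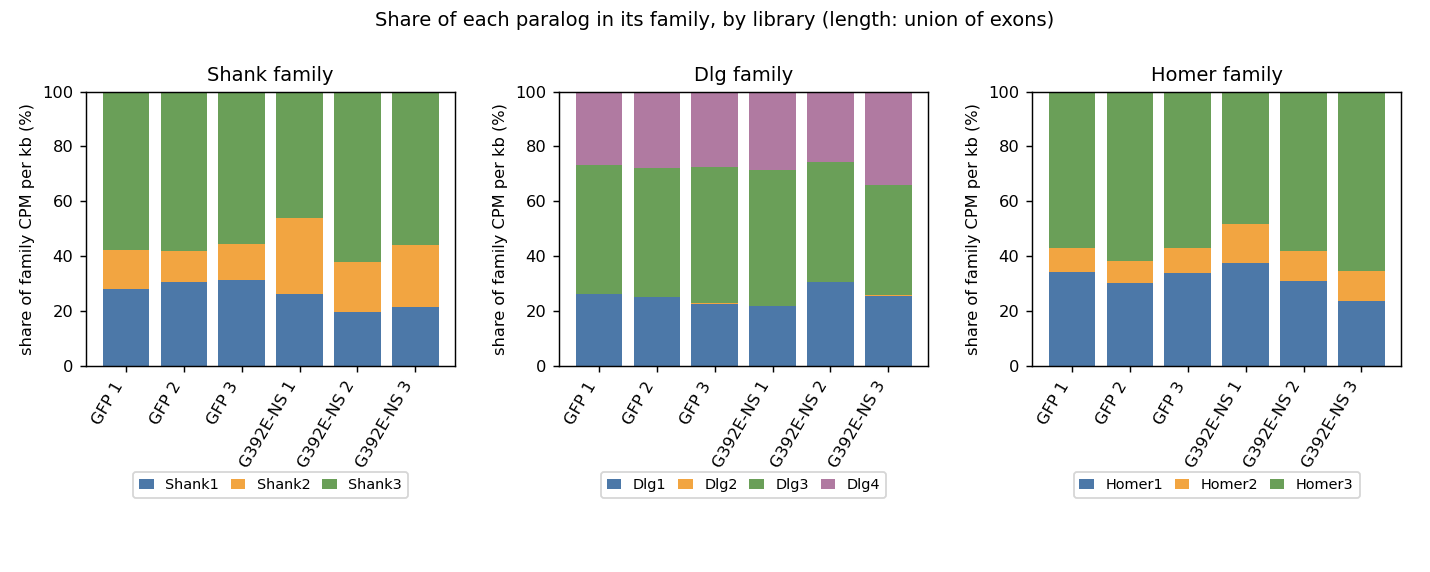
Share of each paralog in the summed CPM per kb of its family, by library, with the union of exons as gene length; each bar adds up to 100%. Shank2 takes 11.4% to 14.2% in GFP cells and 18.4% to 27.4% in G392E-NS libraries, and Dlg2 is at most 0.115% of its family and cannot be seen as a band.

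Genes that act with these scaffolds were taken from 7 lists of 144 genes, of which 131 were tested. Among them 12 were higher and 6 lower, 9.16% and 4.58%, against 4.79% and 1.36% of all genes tested, and their median log2 fold change was 0.03. With a library left out there were 3 to 11 higher genes and 2 to 12 lower ones. Higher genes numbered 3 without GFP replicate 1 or GFP replicate 2 and 7 without G392E-NS replicate 3. Lower genes numbered 12 without G392E-NS replicate 1, 3 without GFP replicate 2 or GFP replicate 3, and 2 without any other library.

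Of 28 partner scaffolds and adaptors tested, 2 rose and none fell (median log2 fold change −0.05). Neither call held without GFP replicate 1, 2 or 3. Dlgap1, an adaptor between PSD-95 and Shank, rose from 7.37 ± 0.494 to 13.7 ± 2.18 CPM (n = 3 each; log2 fold change 0.90, SE 0.16, edgeR adjusted p = 0.0178). Dlg5, a large and distant relative of the Dlg genes, rose by 0.54 on the log2 scale. Of 21 postsynaptic enzymes and regulators, 2 fell and none rose (median 0.03). They were Cnksr2, a scaffold of Ras signalling found at the postsynaptic density, from 8.13 ± 0.357 to 2.56 ± 0.608 CPM (log2 fold change −1.65, edgeR adjusted p = 0.00486), and the spine protein gene Ppp1r9a, which fell by 0.47. The call of Cnksr2 held with any library left out, and that of Ppp1r9a held only without G392E-NS replicate 1.

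Of 20 glutamate receptor and auxiliary subunit genes tested, 3 rose and 1 fell (median 0.32). The kainate receptor gene Grik2 rose 2.52-fold from 38.2 ± 7.22 to 96.5 ± 11.5 CPM (n = 3 each; edgeR adjusted p = 0.00279). The AMPA receptor gene Gria1 had 4 counts over the 3 GFP libraries and 103 over those with G392E-NS (log2 fold change 4.51, edgeR adjusted p = 0.000797). The calls of Grik2 and Gria1 held with any library left out. Gria4, the AMPA receptor subunit gene at 191 ± 18.7 CPM in GFP, was at 128 ± 15.1 CPM in G392E-NS libraries (log2 fold change −0.58, edgeR adjusted p = 0.0291), a call that held only without G392E-NS replicate 1.

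Of 10 calcium channel and store genes bound by Homer or coupled to it, 1 rose and 1 fell, with a median of −0.34 and a positive value for Stim1 and Orai1 alone. Ryr3, an ER calcium release channel, fell from 160 ± 10.5 to 96.6 ± 3.95 CPM (n = 3 each; log2 fold change −0.73, edgeR adjusted p = 0.00382), with any library left out as well. Exons of Aven on the opposite strand cover 4.83% of the exon bases of Ryr3, and Aven had a log2 fold change of −0.05 (edgeR adjusted p = 0.875). Stim1, the ER calcium sensor, rose by 0.58 on the log2 scale, a call that did not hold when GFP replicate 1 or 2 or G392E-NS replicate 2 was left out (edgeR adjusted p up to 0.0991). Of 28 genes of excitatory postsynaptic adhesion, 3 rose and 2 fell (median 0.01). The neuroligin gene Nlgn3 and the adhesion genes Slitrk1 and Lrfn2 rose by 0.74, 1.19 and 1.09, and Lrrtm4 and the ephrin receptor gene Epha4 fell by 0.99 and 0.76. None of these 5 held with every library left out in turn, with edgeR adjusted p up to 0.189.

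Of 9 genes of the inhibitory postsynapse, 1 rose, the GABA receptor auxiliary gene Shisa7 (log2 fold change 0.95, edgeR adjusted p = 0.0432; median 0.05), and it held only without G392E-NS replicate 2. Of 15 activity-regulated genes, 2 rose (median 0.13), Fos by 1.37 and Jun by 0.62 on the log2 scale, with edgeR adjusted p of 0.0372 and 0.0348. Leaving out GFP replicate 1 or 2, or G392E-NS replicate 3, ended both calls. Homer1, whose short form belongs to such genes, stood at −0.26.

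**Figure D5:**
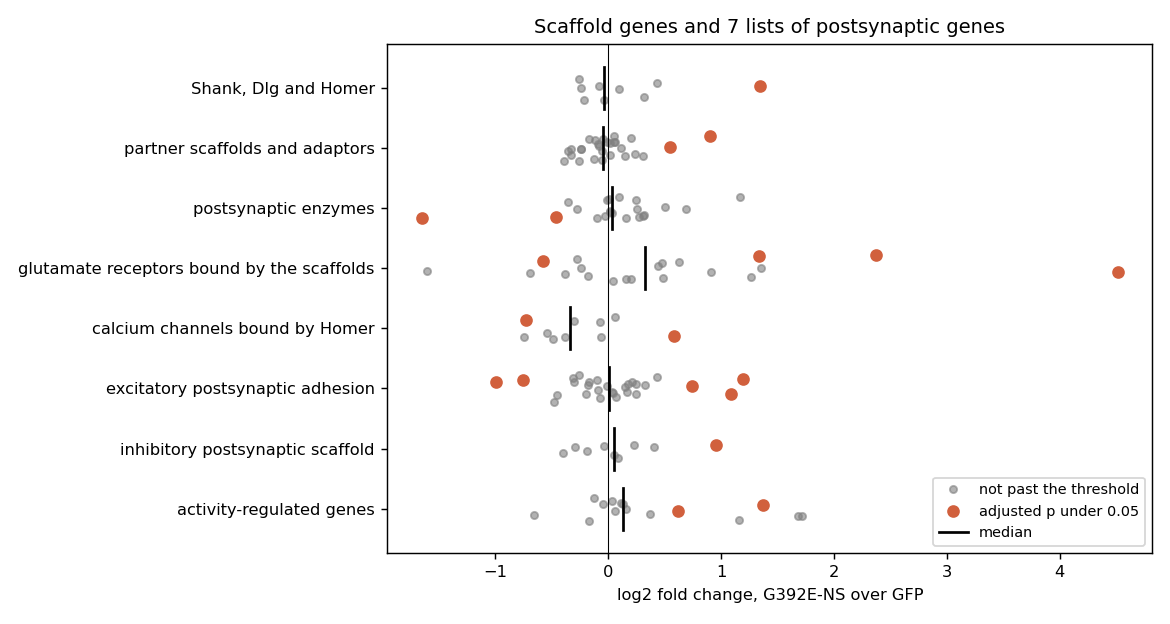
Log2 fold change of G392E-NS over GFP for the genes tested of the Shank, Dlg and Homer families and of 7 lists of postsynaptic genes, with called genes in orange and the median of each list as a black bar; the vertical scatter within a list has no meaning. Medians run from −0.34 for calcium channels to 0.32 for glutamate receptors, with called genes on both sides of 0 in 3 of the lists.

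Among marker genes, 5 of 13 astrocyte markers rose (median 1.36), among them Gjb6 (log2 fold change 3.68), Aldoc (1.99), Fgfr3 (1.57) and Slc1a2 (1.32). Their number was 8 without G392E-NS replicate 1, 2 without GFP replicate 2 and 3 without GFP replicate 1 or 3. Of 12 neuron markers tested, Gap43 rose by 1.11 and Elavl4 and Gad1 fell by 0.70 and 0.65, with a median of 0.17. The call of Elavl4 held only without G392E-NS replicate 1, and that of Gad1 was lost without GFP replicate 1 or GFP replicate 2. Of 11 oligodendrocyte lineage markers Nkx2-2, Mog and Pdgfra rose, by 3.96, 2.25 and 1.11, and none of these 3 calls held without GFP replicate 1, 2 or 3. Of 12 progenitor markers, Prom1 rose by 2.52 and Nes fell by 0.77, the latter a call that held only without G392E-NS replicate 1. Of 4 mesenchymal markers tested, Thy1 rose by 4.24, and Twist1 had no counts in GFP cells and 129 in G392E-NS libraries. The 1 endothelial gene tested, Kdr, had a log2 fold change of −0.06 (edgeR adjusted p = 0.946). The part of cell composition in the values of the scaffold genes was not tested.

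Across the 6 libraries, the gene whose log2 CPM ran most closely with Shank2 among 12560 genes of at least 1 CPM was Pias4 (Pearson r = 0.994), and 83 of those genes had an r of at least 0.95. It was Scarb2 for Shank3 and Ap2b1 for Shank1 (r = 0.997 and 0.985), and B3galnt2 for Homer1, Plcxd2 for Homer2 and D11Wsu47e for Homer3 (r = 0.996, 0.995 and 0.993). For Dlg1, Dlg3 and Dlg4 it was Dpp7, Usp37 and Ypel1 (r = 0.982, 0.997 and 0.994). With 6 libraries in 2 groups, and 12 to 272 genes at an r of at least 0.95 per member, these values describe likeness in these libraries only.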

How the data were processed

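RNA from 3 GFP and 3 G392E-NS libraries was sequenced. The authors deposited raw counts per Ensembl gene, whole numbers with no normalisation. TopHat2 2.0.12, HTSeq 0.6.1, DESeq2 1.4.5, R 3.2.2 and the build GRCm38 are listed in the submitters' processing notes, which assign them no role. Annotation release, strand setting, read length and filters: not given in the sources used here.

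Groups and replicate numbers came from the labels. Symbols, positions and lengths came from GENCODE M21 (GRCm38), which matched 37693 of 39179 genes. No replicate pair was a duplicate (chi-square per degree of freedom 8.02 to 56.4).

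Counts were tested with edgeR 4.0.16 in R 4.3.3 (filterByExpr, TMM factors, quasi-likelihood F test, no covariate), with Benjamini-Hochberg adjustment over the 13775 genes tested and a threshold of 0.05. CPM values use TMM-scaled library sizes. Each standard error is the fold change over the square root of F. Paralog levels used log2 of CPM plus 0.1, per kb, with exact sign flips over libraries. On simulated data the fit recovered 32% of 50 genes changed 1.5-fold and 86% of 50 genes changed 2-fold. There were 12 false calls of 166 among 13603 genes tested. The simulation gave both groups the same dispersion, whereas members spread more among G392E-NS libraries, so these rates may not carry over.

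Members and lists were chosen with earlier results of these data known. The text names the members, up to 4 called genes of each list with the largest fold change or the nearest gene where none was called, Xist, and the gene most like each member. A gene that this rule names among the glutamate receptors is not reported here. Named outside that rule, after their values were seen, were Nlgn3, Orai1, Map2, Pdgfrb, the Y-linked genes, marker genes near 0, Aven, Ddx49, 1700008O03Rik and Gm15609. Alternatives were RLE and upper-quartile scaling, DESeq2 1.42.0, limma-voom (limma 3.58.1), other filters, the replicate number as a block, each library left out, length and GC trends removed, transcript length and a pseudocount of 1.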

Additional observations from a re-analysis of the deposited data

How the results depend on the processing

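Over all genes, 660 higher and 187 lower calls became 1084 and 366 under DESeq2, 1205 and 374 without the low-count filter, 217 and 50 with the replicate number as a block, and 193 to 963 and 46 to 391 with a library left out. Of the members, 1 was higher and 0 lower; DESeq2 gave 2 higher, and leaving out a library gave 0 to 2 higher and 0 to 1 lower. Genes of the 7 postsynaptic lists, 12 higher and 6 lower, were 4 and 3 with the replicate block and 3 to 11 and 2 to 12 with a library left out. Same-numbered libraries did not deviate together (correlations of 0.03, −0.38 and −0.26), so the number was not taken as pairing samples; Shank2 passed with the block (edgeR adjusted p = 0.035). Shank2 kept its direction under all 14 alternatives and its call in 12, and Dlg3, Homer2 and Homer3 kept their direction without a call in all 14. Without the low-count filter 11 astrocyte markers were called higher, against 5. With length and GC trends removed, Dlg1 and Dlg4 had log2 fold changes of 0.014 and 0.011, against −0.08 and −0.04. Shank1 ranged from −0.081 to 0.235 and Dlg4 from −0.14 to 0.07 with a library left out. Of 12 paralog pairs, 10 differed per kb of exon union and 0 with transcript lengths by exact sign flips over libraries, a count that supports nothing since the choice of families may have used these levels. With 6 libraries the sign-flip p cannot fall under 0.03125. Pairs at that limit had an adjusted p of 0.0375 with exon unions and 0.0536 with transcript lengths. The count of 0 therefore does not mean equal levels. With transcript lengths, Dlg1 minus Dlg3 was 0.10, Dlg3 minus Dlg4 −1.01 and Homer1 minus Homer3 0.11 on the log2 scale. The number of pairs was 0 with any library left out, as 5 libraries cannot give a p under 0.0625. The cause of other shifts was not tested. Depth limits Dlg2, with 3 to 11 counts per library.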
